A study of Mus musculus with 62 samples.

Results

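The loci described here are those of 8 interferon regulatory factor genes of the mouse, Irf1, Irf2, Irf3, Irf4, Irf5, Irf7, Irf8 and Irf9, out of 21938 protein-coding genes in the GENCODE M21 annotation of mm10. The members were taken by name. For each of them, every listed differential site was collected that overlapped the gene body or the 50 kb on either side of it, in 14 tables of chromatin comparisons. This gave 1233 of the 1743368 sites in those tables. Irf8 had the most, with 221 sites, and Irf1 the fewest, with 114. The tables list only sites that had passed the window test of the authors' program, so a stretch of a locus without a listed site has no value here.

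The measurements came from CUT&Tag, in which a transposase guided by an antibody inserts sequencing adaptors into the DNA next to a bound protein or a histone mark. The antibodies were against the histone variant H3.3, the ETS-family transcription factor Pu.1 (encoded by Spi1), H3K27ac (a mark of active promoters and enhancers), H3K9me3 (constitutive heterochromatin) and H3K27me3 (the Polycomb mark of facultative silencing). The cells were haematopoietic stem and progenitor cells (HSPCs) of C57BL/6 bone marrow, magnetically sorted as lineage-negative and c-Kit-positive. The wild-type (WT) mice were Daxx +/+ Cre +/-, the Daxx-KO mice Daxx F/F Cre +/- and the double-knockout (DKO) mice had the last of these genotypes and Pu.1 F/F in addition, where F is a loxP-flanked allele. Daxx is a chaperone that deposits H3.3, and exons 2 to 7 of its gene are the ones between the loxP sites.

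All 3 genotypes carried 1 Cre allele, whose driver the sample labels do not name. By the study's methods, the DKO mice were bred on the Mx1Cre line and were given pI:pC to switch it on. For the WT and Daxx-KO mice, the Cre lines of the methods that could apply are Mx1Cre and Rosa26CreERT2, the latter switched on by tamoxifen. The methods place analyses of tamoxifen-treated mice at 3 weeks after induction or earlier, and name only Mx1Cre for cells taken at 24 weeks. They do not name the line used for CUT&Tag. Since pI:pC, a mimic of double-stranded RNA, itself induces interferon, a comparison of loci for interferon factors is read here only between genotypes that all carried Cre. At 3 weeks post induction (w.p.i.) and at 24 w.p.i., 2 Daxx-KO libraries were compared with 2 WT libraries for each antibody, with H3K27me3 measured at 24 w.p.i. only. At 8 w.p.i., H3K9me3 was compared between WT, Daxx-KO and DKO in pairs, and H3K27me3 between DKO and each of the other genotypes, with 3 libraries per group. In the labels, the first WT library at 3 w.p.i. is described for H3.3 and for Pu.1 only as wild type, without a mouse number. The other H3.3 and Pu.1 libraries at 3 w.p.i. came from the same mice. The H3K27ac libraries shared 1 WT animal with these and otherwise came from mice with other numbers. All libraries compared at 24 w.p.i. came from the same 4 mice.

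Interferon regulatory factors share an amino-terminal DNA-binding domain that recognises GAAA-rich elements. Irf3 and Irf7 are phosphorylated downstream of nucleic-acid sensors and switch on type I interferon genes, and Irf5 acts downstream of Toll-like receptors on inflammatory cytokine genes. Irf9 is the DNA-binding part of the complex that drives interferon-stimulated genes, Irf1 is itself interferon-induced and activates such genes, and Irf2 binds the same elements and often opposes Irf1. Irf4 and Irf8 bind weakly on their own and are recruited by Pu.1 to composite ETS-IRF elements. In bone marrow, Irf8 directs progenitors to monocytes and dendritic cells at the expense of neutrophils, and Irf4 acts mainly in B and plasma cells and other lymphocytes.

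A value below is a normalised read count, the reads of a library in a site divided by that library's constant, and each table has its own normalisation, so values are compared within a table only. A site was called higher or lower where every library of one group lay above every library of the other and the group means (with 1 added) were at least 2-fold apart. No test was run, because the sites had been selected on these libraries. An exact two-sided permutation of the libraries at 1 site could not give a p below 0.333 with 2 libraries per group or below 0.100 with 3. Mean depth ranged from 0.20 to 33.8 reads per 600-base window. The second WT library at 3 w.p.i. was shallow for H3.3 (3.06 reads per window) and Pu.1 (2.75), where the other libraries of those tables had at least 9.43. The first WT library was the deepest, at 22.88 and 33.8. After the constants it still held 16 and 17.6 per window, against 8.01 and 8.79 in the second. The Daxx-KO libraries then held 7.45 and 8.31 for H3.3, and 8.94 and 9.72 for Pu.1. All 7 HSPC marker genes, Kit and Cd34 among them, had called H3K27ac sites at both times. Of all listed H3K27ac sites, however, 95.1% were called at 3 w.p.i. and 80.8% at 24 w.p.i., so this does not tell cell types apart. Tables of differences do not give the level of a mark, so the labelled cell type could not be checked.

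H3.3 and Pu.1 stood higher in Daxx-KO HSPCs across most of these loci at 3 w.p.i., and no such lean was present at 24 w.p.i. For H3.3 at 3 w.p.i., 107 of the 134 listed sites were called higher and 18 lower, so that 85.6% of the called sites were higher (exact 95% interval 78.2 to 91.2). Of all sites listed for this comparison, 91.5% were called, 54% of all sites higher and 37.5% lower, which made 59.0% of the called sites higher. For Pu.1 at 3 w.p.i., 87 of 134 were called higher and 29 lower, or 75.0% (66.1 to 82.6), in a table with 85.6% of sites called (47.4% higher, 38.2% lower). Without the shallow WT library, the numbers called higher fell to 76 for H3.3 and 54 for Pu.1, and the shares higher were 81.7% and 68.4%. Among Pu.1 sites whose nearest gene start was that of the member, 59.5% of the called sites were higher. Intervals of shares cover counting error only. Neighbouring sites of a locus share libraries and are not independent, so the intervals are too narrow.

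At 24 w.p.i., 87 H3.3 sites of the members were called higher and 64 lower out of 152, or 57.6% (49.3 to 65.6), in a table with 97.6% called, 50.8% higher and 46.8% lower. For Pu.1, 67 were called higher and 81 lower of 151, or 45.3% (37.1 to 53.7), where 97.2% of the table was called (46.3% higher, 50.8% lower). Both shares were within a few points of their tables, which had 52% and 47.7% of called sites higher, and both intervals took in the table's share. H3K9me3 leaned upward, with 49 called higher and 15 lower of 66, or 76.6% (64.3 to 86.2), whereas the table had 83.1% called, 40.8% higher and 42.3% lower. This lean was not particular to these loci, since the other genes of the interferon pathway, taken up further below, had 67.6% of called sites higher.

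**Figure D1:**
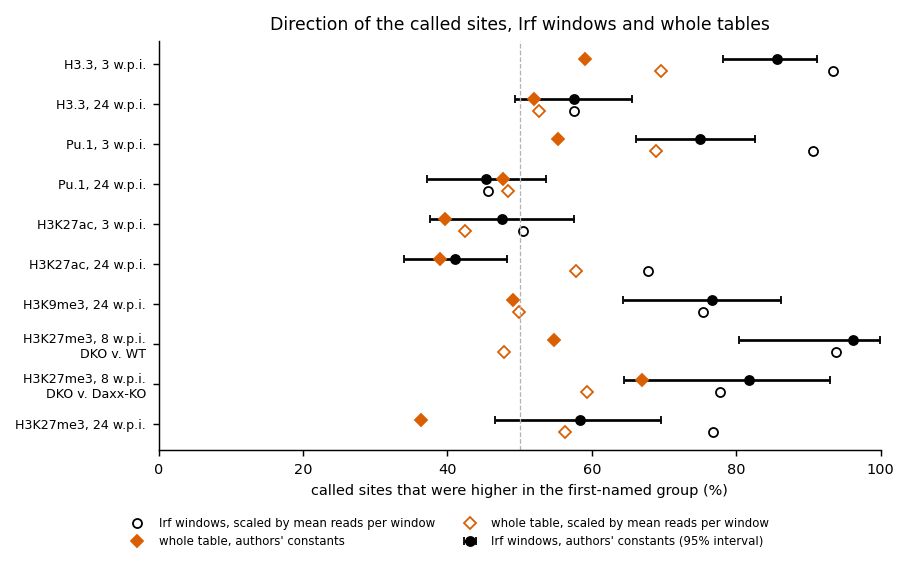
Share of called sites that were higher in the first-named genotype (x axis, percent), by comparison (y axis), for the sites of the 8 interferon regulatory factor loci (points, with exact 95% intervals for counting error) and for all sites of the same table (diamonds), with open symbols for the scaling by mean reads per window. By the authors' constants, the loci lay furthest above their table for H3.3 at 3 w.p.i. (85.6% against 59.0%), H3K27me3 in DKO against WT at 8 w.p.i. (96.2% against 54.8%) and H3K9me3 at 24 w.p.i. (76.6% against 49.1%).

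H3K27ac did not lean one way in a manner that held under another scaling. At 3 w.p.i., 49 sites were called higher and 54 lower of 112, or 47.6% higher (37.6 to 57.6), in a table with 95.1% called (37.7% higher, 57.4% lower). At 24 w.p.i., 80 were called higher and 115 lower of 283, or 41% (34.0 to 48.3), where 80.8% of the table was called (31.5% higher, 49.3% lower). After the constants, the WT libraries of that table held a mean of 8.42 and 8.15 per window and the Daxx-KO libraries 5.37 and 5.81, and dividing by mean reads per window in place of the constants shifted the log2 ratios of the whole table by 0.56. With that scaling, 122 member sites were higher and 58 lower, or 67.8%, beside 57.8% of called sites in the table. Log2 ratios and counts of H3K27ac sites of the members at 24 w.p.i. are therefore given below with both scalings.

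H3K9me3 was all but unlisted at these loci before 24 w.p.i., when its libraries were shallower. Their depth was 1.21 to 3 reads per window at 3 w.p.i. and 0.20 to 3.29 at 8 w.p.i., against 5.22 to 9.11 at 24 w.p.i. A later appearance of the mark can therefore not be read from these lists. At 3 w.p.i. none of 62029 listed sites (97.6% called) lay at a member. At 8 w.p.i. 1 site was listed, at 50.7 kb from the Irf5 start, lower in Daxx-KO (0.00, 0.00 and 0.00) than in WT (4.74, 8.44 and 7.49), in a table with 86.3% called and 30.6% called lower. The DKO tables held no member site among 49314 (64.8% called) against WT and 42945 (69% called) against Daxx-KO.

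H3K27me3 was called in different directions at different members, a difference between members that was not tested. At 24 w.p.i., 45 sites were called higher and 32 lower of 124, or 58.4% higher (46.6 to 69.6), in a table with 66.8% called, 24.3% higher and 42.5% lower, that is 36.4% of called sites higher. Scaled by mean reads per window the split was 63 higher and 19 lower (76.8%), beside 56.3% in the table, and with sites of the same direction merged within 1 kb the share was 49.2%. Irf8, Irf4 and Irf5 held 40 of the 45 higher sites, and the other 5 were at Irf3 (4) and Irf9 (1). Irf1, Irf2 and Irf7 had none higher and 3, 2 and 6 lower. With that scaling, Irf7 had 1 higher and 2 lower and Irf3 8 and 5, and Irf1 and Irf2 still had none higher. Without the second Daxx-KO library the count at Irf5 was 3 in place of 6. The plot of calls by gene shows this split next to the other marks.

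**Figure D2:**
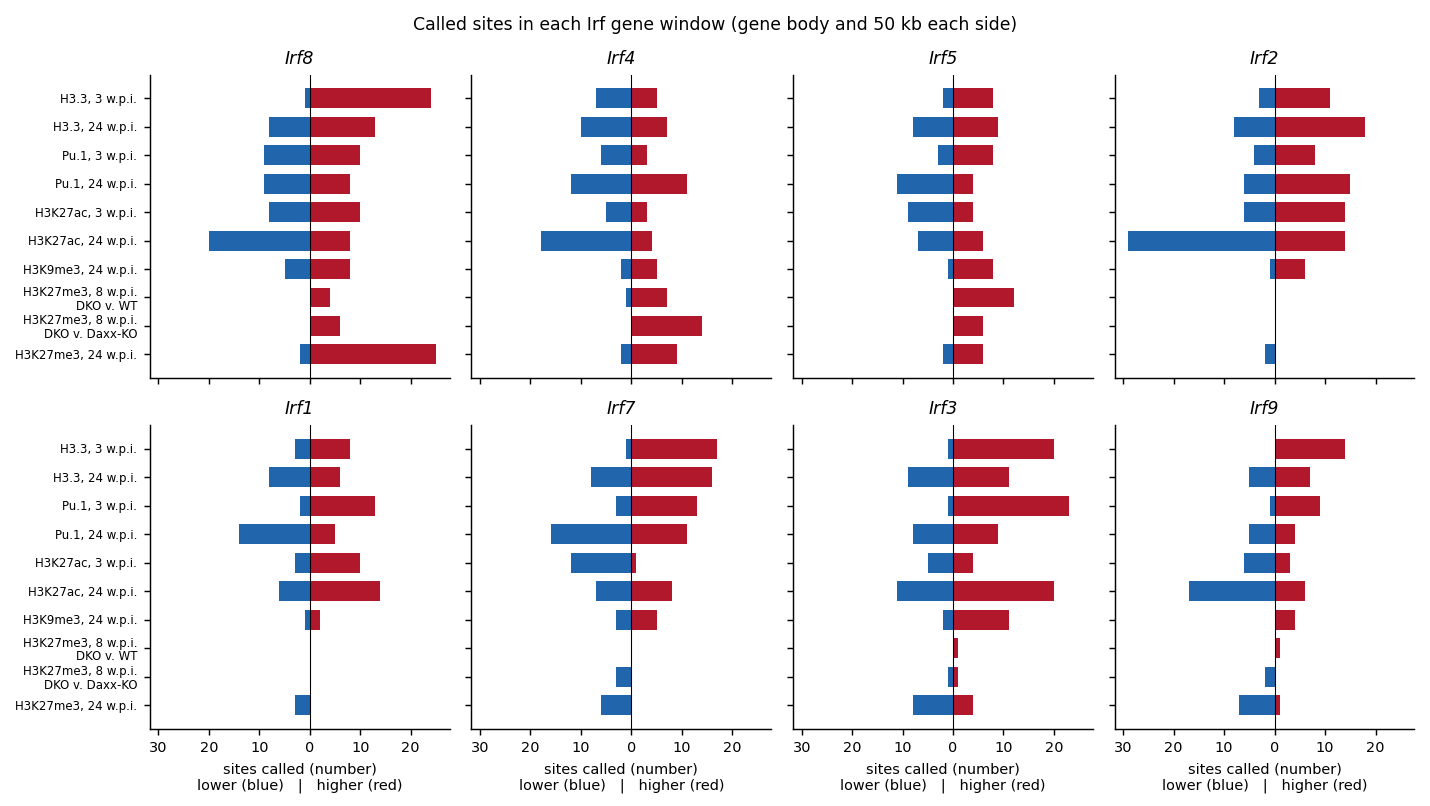
Number of sites called higher and lower (x axis, count of sites, lower to the left of 0) in each comparison (y axis), 1 panel per locus. H3K27me3 at 24 w.p.i. was called higher mostly at Irf8 (25 sites), Irf4 (9) and Irf5 (6), and H3.3 at 3 w.p.i. had more sites higher than lower at each locus except Irf4 (5 higher and 7 lower, but 8 and 2 scaled by mean reads).

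Irf8 (chr8:120736358-120756694, plus strand, inside the longer readthrough gene Gm20388) had the longest listed site of all 8 loci. This H3K27me3 site of 16700 bases, chr8:120731501-120748200, ran from upstream of the promoter over the first exons at 24 w.p.i. The Daxx-KO libraries held 6858 and 6562 normalised reads there and the WT libraries 2846 and 3668, a log2 ratio of 1.04 ± 0.19 (SE, n = 2 per group). Both Daxx-KO libraries were well above both WT libraries. With 1 library left out at a time the log2 ratio ran from 0.87 to 1.24, and the lowest value, under 2-fold, came without the first WT library. A second site at the 3′ part of the gene, chr8:120751951-120755300, had 517 and 487 in Daxx-KO against 236 and 204 in WT, a log2 ratio of 1.18 ± 0.11.

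In all, 25 of 41 listed H3K27me3 sites of Irf8 were called higher at 24 w.p.i. and 2 lower, and 62950 of the 77200 bases listed at the locus were in sites called higher. Leaving out 1 library at a time gave 18 to 30 higher and 1 to 3 lower, and the scaling by mean reads gave 34 higher and 1 lower. Of 20807 autosomal protein-coding genes, 0.293% had a net number of higher minus lower sites at least as large as that of Irf8 (23) in this comparison, although long windows with many sites can reach such a number more easily. The larger of the 2 lower sites, 35.4 kb from the start, had 19.1 and 25.8 in Daxx-KO against 67.2 and 44.3 in WT (-1.27, and -0.92 scaled by mean reads). The map of the Irf8 window places these sites beside those of the other marks. In bulk HSPCs, a mark on fewer cells of a type and a weaker mark in each cell cannot be told apart.

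**Figure D3:**
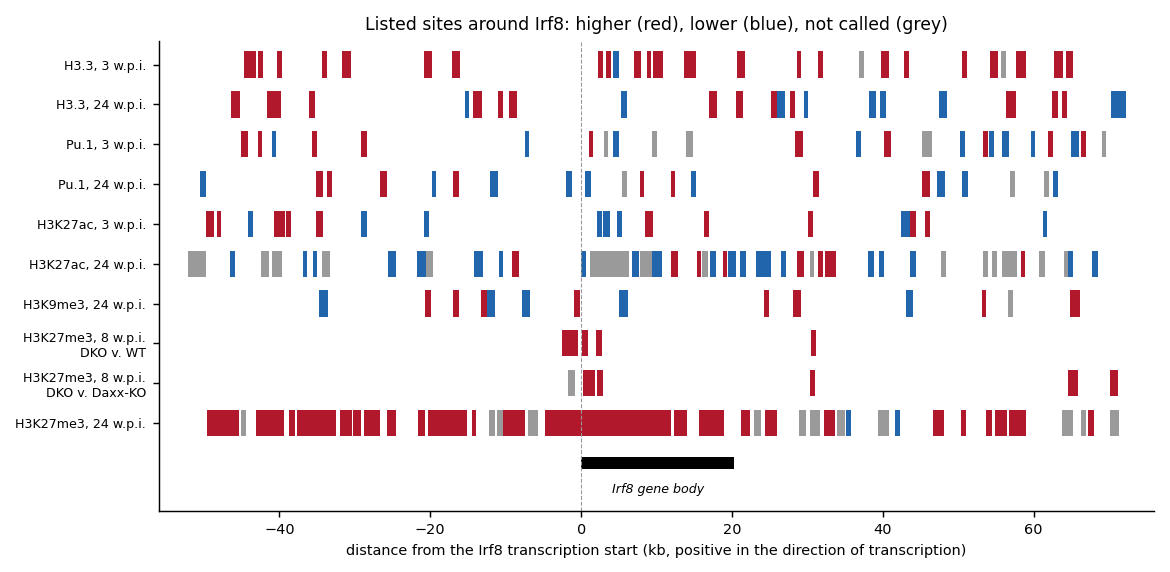
Listed sites in the Irf8 window at 3, 8 and 24 w.p.i. (x axis, distance from the Irf8 start in kb), 1 row per comparison, with bars from site start to site end coloured by the call (red higher, blue lower, grey not called). The longest bar is the 16700-base H3K27me3 site at 24 w.p.i. over the promoter and first exons, and the H3K27me3 bars near the start at 8 w.p.i. are higher in DKO.

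**Figure D4:**
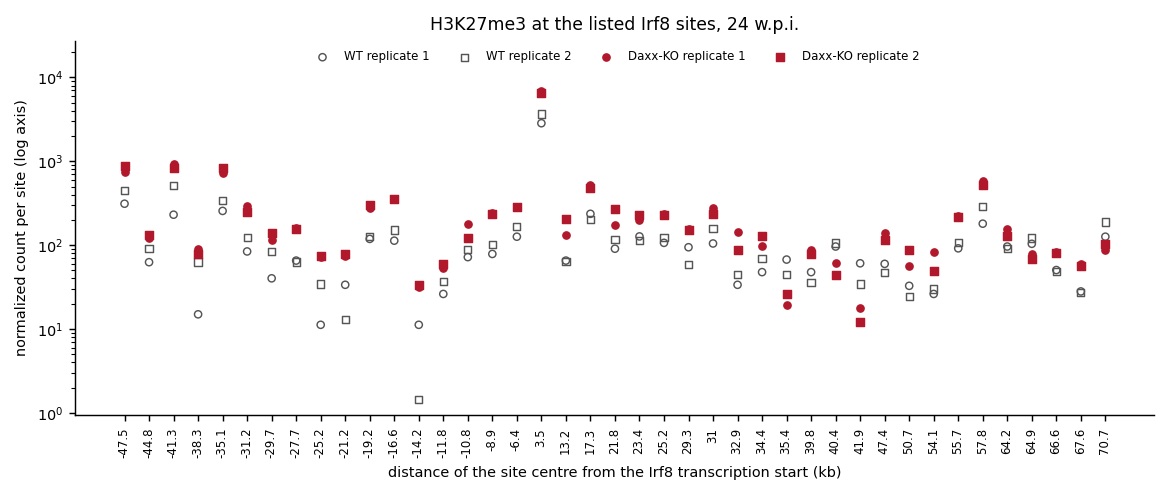
Normalised H3K27me3 read counts at 24 w.p.i. in each library (y axis, log scale) for listed sites of the Irf8 window, evenly spaced and ordered by distance from the Irf8 start (x axis, kb), with 2 Daxx-KO and 2 WT libraries as points. At the 16700-base site the Daxx-KO libraries sit at 6858 and 6562 and the WT libraries at 2846 and 3668.

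At 8 w.p.i. the same promoter region had more H3K27me3 in DKO than in WT. At chr8:120733851-120735900, just upstream of the start, the 3 DKO libraries held 262, 162 and 202 and the 3 WT libraries 108, 84.2 and 102, a log2 ratio of 1.08 ± 0.23. At chr8:120736451-120737350, in the first intron, DKO had 60, 50.7 and 91.5 and WT 27.1, 8.15 and 34.7 (1.49 ± 0.65). At chr8:120738401-120739200, which covers a UTR of an Irf8 transcript, DKO had 14.7, 10.5 and 30.5 and WT 4.37, 3.62 and 3.35 (2.03 ± 0.44). The groups did not overlap at any of the 3 sites. Against Daxx-KO, which shares the DKO libraries with the comparison above, the DKO libraries held 60.3, 58.3 and 103 at 0.6 kb and the Daxx-KO libraries 29.7, 43.5 and 23.0 (1.18 ± 0.37). Scaled by mean reads, the log2 ratios at -1.5, 0.5 and 0.6 kb became 0.87, 1.17 and 0.90, and none of the 3 was called. Both of the smaller ones were also under 2-fold without 1 library, at 0.88 or 0.98 (DKO replicate 1 or WT replicate 2 left out, -1.5 kb) and 0.87 or 0.99 (DKO replicate 3 or Daxx-KO replicate 3 left out, 0.6 kb).

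The promoter of Irf8 is rich in CpG, the sequence context in which Polycomb marks are usually found, and that of Irf4 is less so. Of the 250 bases before the start, the Irf8 promoter held 29 CpG and the Irf4 promoter 11, where the median of the RefSeq promoters was 6. Of all promoters, 93.2% had fewer CpG than Irf8, 89.3% fewer than Irf5, 64.4% fewer than Irf4 and 29% fewer than Irf7. Both promoters of Irf1, where H3K27me3 was lower in Daxx-KO, were also rich in CpG, with 25 and 35 (89.3% and 97.0% of promoters had fewer). Irf2 had 17 (76.5%), Irf3 16 (74.6%), Irf9 7 and 1 (53.7% and 7.87%) and a second Irf8 promoter 8 (57.0%). The first 200 bases of the Irf8 and Irf4 promoter windows (RefSeq promoter table, build mm10, plus strand, chr8:120736108-120736307 and chr13:30748983-30749182) are shown to let these be compared, with every CG in capitals.
Irf8 promoter: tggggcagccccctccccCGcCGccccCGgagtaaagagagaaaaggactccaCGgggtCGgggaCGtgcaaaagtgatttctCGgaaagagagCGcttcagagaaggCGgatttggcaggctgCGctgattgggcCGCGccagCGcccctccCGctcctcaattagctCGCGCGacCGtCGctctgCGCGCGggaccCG
Irf4 promoter: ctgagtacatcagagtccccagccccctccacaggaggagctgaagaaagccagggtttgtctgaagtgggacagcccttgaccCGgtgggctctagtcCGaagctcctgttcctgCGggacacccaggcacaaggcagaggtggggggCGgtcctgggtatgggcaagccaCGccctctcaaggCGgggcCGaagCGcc
The Irf8 stretch holds 23 CG and the Irf4 stretch 8. The Irf8 stretch lies inside the 16700-base H3K27me3 site.

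Active marks at Irf8 differed between genotypes in different places at the 2 times. At 3 w.p.i., H3K27ac at -40.0 kb (chr8:120695651-120697050, in Gm20388) was 104 and 87.5 in Daxx-KO against 14.0 and 26.5 in WT, a log2 ratio of 2.19 ± 0.45. At chr8:120738451-120739150, 2.4 kb from the start, it was 4.84 and 3.40 against 33.3 and 18.8 (-2.40 ± 0.45). Thus an upstream element was higher while a stretch inside the gene was lower in the same Daxx-KO libraries. Over the window, 10 H3K27ac sites were called higher and 8 lower at 3 w.p.i.

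At 24 w.p.i., H3K27ac at -21.1 kb (chr8:120714601-120716000) was 54.7 and 139 in Daxx-KO against 295 and 339 in WT (-1.70 ± 0.67, -2.51 without the second Daxx-KO library, and -1.16 scaled by mean reads). At 29.1 kb, beyond the 3′ end (chr8:120765001-120765900), it was 233 and 176 against 89.4 and 87.8 (1.20 ± 0.20, 0.98 without the first Daxx-KO library, and 1.77 scaled by mean reads). The site over the first exons, 3.3 kb from the start and 4250 bases long, was not called by the authors' constants, with 890 and 1818 against 725 and 761 (0.86 ± 0.52, and 0.26 without the second Daxx-KO library), but was called higher scaled by mean reads (1.41). It lies within the 16700-base H3K27me3 site, so both marks were listed over the same stretch. The window as a whole had 8 H3K27ac sites called higher and 20 lower, and 18 higher and 9 lower with the other scaling, so no direction can be given for it. Without the first Daxx-KO library the split was 13 and 14.

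H3.3 was called higher at 24 of 27 listed Irf8 sites at 3 w.p.i. and lower at 1. The best covered of these near a start, 10.2 kb downstream in an intron, had 109 and 155 in Daxx-KO against 51.2 and 41.9 in WT (1.49 ± 0.29). At 24 w.p.i., 13 were called higher and 8 lower. At 57.0 kb (chr8:120792701-120794100) H3.3 was 147 and 217 against 66.4 and 52.7 (1.60 ± 0.33). Pu.1 was called in both directions at both times, with 10 higher and 9 lower at 3 w.p.i. (6 and 9 without the shallow WT library, but 13 and 4 scaled by mean reads) and 8 higher and 9 lower at 24 w.p.i. H3K9me3 at 24 w.p.i. was lower in Daxx-KO 5.6 kb from the start, with 20.4 and 10.4 against 93.3 and 116 (-2.69 ± 0.48), and at -0.5 kb it was 35.7 and 62.5 where both WT libraries were at 0.00.

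Over the 14 comparisons, the protein-coding genes on other chromosomes whose net numbers of higher minus lower sites were most like those of Irf8 were Abca8a (Pearson r = 0.924, n = 14 comparisons), Gm40193 (0.858) and Psmb6 (0.852). These correlations are descriptions only, since the comparisons share libraries and the net numbers also follow the number of listed sites in a window.

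Irf4 (chr13:30749226-30766976, plus strand) had lower active marks at its promoter in Daxx-KO at 24 w.p.i. H3K27ac over the start and first exons (chr13:30748501-30751550) was 115 and 109.8 in Daxx-KO against 585 and 298 in WT, a log2 ratio of -1.97 ± 0.49, and of -1.39 scaled by mean reads. H3.3 at chr13:30748401-30749950 was 4.42 and 18.1 against 104 and 90.3 (-3.00 ± 0.91, and -2.36 or -4.18 without the first or the second Daxx-KO library). Pu.1 at chr13:30748451-30749450 was 23.9 and 4.18 against 155 and 49.5 (-2.78 ± 1.40, and between -4.32 without the first Daxx-KO library and -1.75 without the first WT library). H3K9me3 at 0.8 kb was the other way, 71.4 and 95.9 against 18.7 and 24.4 (1.91 ± 0.28). All 4 marks were measured in the same mice, and the groups did not overlap for any of them.

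Away from the promoter, the called H3K27ac site with the most signal in the Irf4 window was at -51.9 kb, in Dusp22, a phosphatase gene (chr13:30694751-30699950), with 213 and 234 in Daxx-KO against 1393 and 1385 in WT. Its log2 ratio of -2.63 ± 0.07 had the smallest error of the sites described in full for Irf4, and was -2.07 scaled by mean reads. An intronic Pu.1 site 10.4 kb from the start (chr13:30758751-30760500) had 5.45 and 29.3 against 236 and 177 (-3.50 ± 1.13, and -2.78 or -5.01 without the first or the second Daxx-KO library). Over the window, H3K27ac was called lower at 18 of 22 sites and higher at 4, or at 12 and 4 with the other scaling, so that its downward direction was kept. At 3 w.p.i. the window had few calls, with 3 H3K27ac sites higher and 5 lower, and 5 H3.3 sites higher and 7 lower. The H3.3 sites turned to 8 higher and 2 lower when scaled by mean reads.

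At 1.1 kb from the Irf4 start, Pu.1 was listed at both times and in opposite directions. At 3 w.p.i. it was 36.2 and 80.3 in Daxx-KO against 23.0 and 22.4 in WT (1.32 ± 0.56), and at 24 w.p.i. 29.99 and 31.3 against 90.7 and 57.9 (-1.25 ± 0.32). The first difference was 0.65 without the second Daxx-KO library and the second -0.90 without the first WT library, both under 2-fold.

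H3K27me3 was higher downstream of Irf4 in DKO. At chr13:30767251-30770100, just beyond the 3′ end, the DKO libraries held 62.3, 70.7 and 78.5 and the WT libraries 13.1, 13.6 and 31.3, a log2 ratio of 1.81 ± 0.40. In the comparison with Daxx-KO, the DKO libraries held 72.8, 84.4 and 96.8 over nearly the same site and the Daxx-KO libraries 4.94, 23.9 and 10.5 (2.60 ± 0.61, and 3.29 without the second Daxx-KO library). Of the listed sites of the window, 7 were called higher and 1 lower of 10 against WT, and 14 higher and none lower of 16 against Daxx-KO. The 1 lower site, at 13.7 kb, had 2.26, 1.75 and 6.54 in DKO against 10.5, 15.4 and 13.4 in WT. In Daxx-KO at 24 w.p.i., 9 H3K27me3 sites of Irf4 were called higher and 2 lower of 13.

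Across the members at 8 w.p.i., H3K27me3 in DKO against WT was called higher at 25 of 31 listed sites and lower at 1, or 96.2% higher (80.4 to 99.9), in a table with 82.5% called, 45.3% higher and 37.3% lower. Against Daxx-KO it was called higher at 27 of 45 and lower at 6, or 81.8% (64.5 to 93.0), in a table with 80.1% called, 53.7% higher and 26.4% lower. Scaled by mean reads, 15 were higher and 1 lower against WT, and 21 higher and 6 lower against Daxx-KO. Irf4, Irf5 and Irf8 held 23 of the 25 sites higher than WT and 26 of the 27 higher than Daxx-KO. Irf1 and Irf2 had no listed site in either table, and Irf7 had 3 sites lower than in Daxx-KO and none higher. Without the first DKO library, the number lower than in Daxx-KO was 10. The 2 comparisons use the same DKO libraries, so their directions are not independent.

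**Figure D5:**
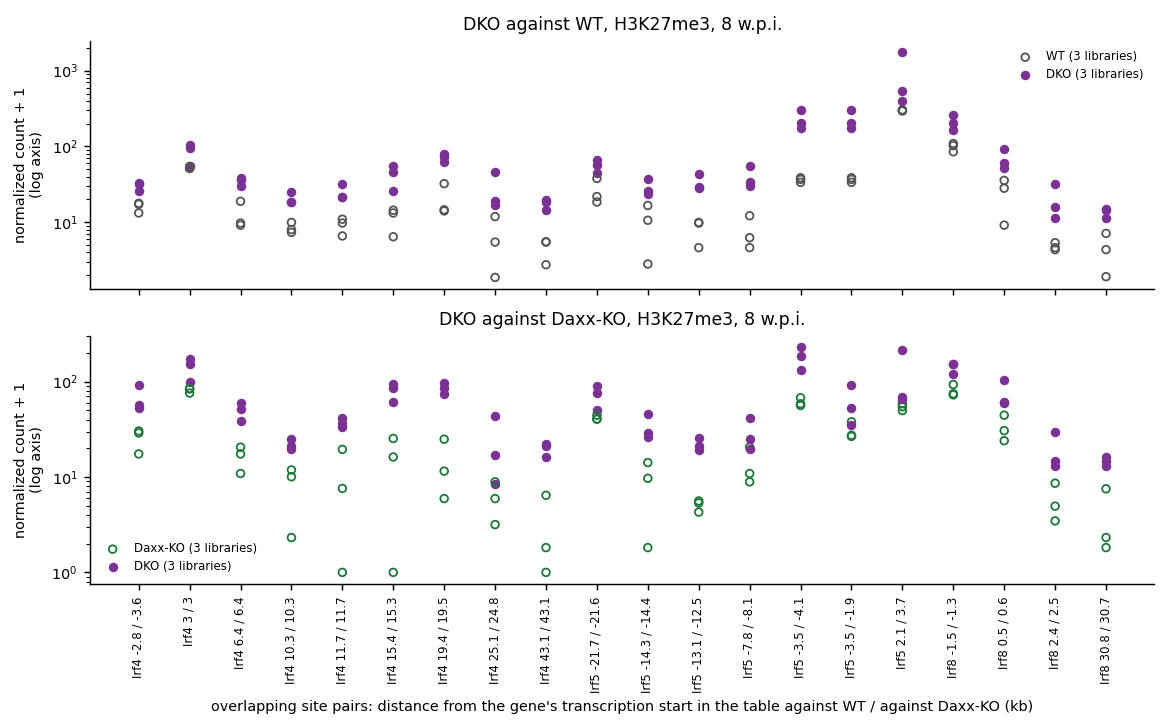
Normalised H3K27me3 read counts plus 1 (y axis, log scale) of each library at 8 w.p.i. for sites of Irf4, Irf5 and Irf8 (x axis, site pairs named by distance from the start in kb) that overlap between the 2 tables, with DKO and WT libraries in the upper panel and DKO and Daxx-KO libraries in the lower panel. At the Irf4 site 19.4 kb from the start the DKO libraries lie between 62.3 and 78.5 and the WT libraries between 13.1 and 31.3.

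Irf5 (chr6:29526625-29541871, plus strand) had the highest H3K27me3 counts among the members at 8 w.p.i. Over its first exons (chr6:29526301-29531200) DKO had 1764, 537 and 396 and WT 301, 293 and 302, a log2 ratio of 1.59 ± 0.66. The first DKO library stood far above the other two, and without it the log2 ratio was 0.64, under 2-fold. With the scaling by mean reads it was 1.49 but the groups overlapped. Upstream, at -3.5 kb, DKO had 306, 203 and 172 against 37.6, 32.6 and 35.8 (2.65 ± 0.25), with all 3 DKO libraries above all 3 WT libraries by a wide margin. The matching site against Daxx-KO (chr6:29520901-29524200) had 229.8, 185 and 130.3 in DKO and 66.7, 57.6 and 55.3 in Daxx-KO (1.59 ± 0.25). In total 12 sites of Irf5 were called higher than in WT and none lower, which fell to 4 higher and none lower under the scaling by mean reads.

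At 24 w.p.i., H3K27ac over the Irf5 promoter (chr6:29525801-29530350) was 949 and 1107 in Daxx-KO against 2745 and 2587 in WT (-1.37 ± 0.12), and -0.81 scaled by mean reads, under 2-fold. The overlapping region at 3 w.p.i., 1.6 kb from the start, had 10.7 and 0.00 against 22.6 and 38.6, so that 1 Daxx-KO library decided the size of the difference (log2 ratio -1.44 or -4.98 with the second or the first of them left out). At 3.4 kb it was 2.91 and 2.55 against 22.6 and 15.5 (-2.42 ± 0.27). By the authors' constants, both times thus had lower H3K27ac in Daxx-KO near the start, from different mice. Of all listed H3K27ac sites, 57.4% at 3 w.p.i. and 49.3% at 24 w.p.i. were also called lower. H3K27me3 at 1.2 kb was 1986 and 1897 against 1216 and 1471 at 24 w.p.i. (0.53 ± 0.14), above WT in both libraries but not called. At 3.8 kb, in an intron, it was lower, 19.9 and 21.2 against 69.1 and 35.7 (-1.31 ± 0.47, -0.77 without the first WT library, and -0.91 scaled by mean reads), and at 4.9 kb it was called higher (1.45, 0.55 without the second Daxx-KO library). Over the window, H3K27ac at 3 w.p.i. was called higher at 4 sites and lower at 9.

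Irf3 and Irf7 are the factors downstream of nucleic-acid sensors. At Irf3 (chr7:44997648-45002848, plus strand), H3K27ac at the promoter was above WT at both times. At 3 w.p.i., 0.6 kb from the start, it was 32 and 35.7 in Daxx-KO against 12.9 and 13.2 in WT (1.31 ± 0.08). At 24 w.p.i., -0.4 kb from the start in the neighbouring gene Bcl2l12, it was 241 and 272 against 113 and 129 (1.08 ± 0.13, 0.99 without either the second Daxx-KO or the first WT library, and 1.64 scaled by mean reads). The Irf3 window holds 7 other protein-coding genes, and only 11 of its 177 listed sites had the Irf3 start as the nearest one, so most of its counts belong as much to those genes. Its H3.3 sites were called higher at 20 of 22 and its Pu.1 sites at 23 of 28 at 3 w.p.i.

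Irf7 (chr7:141262706-141266481, minus strand) had lower H3K27ac at 3 w.p.i., with 12 of 14 sites called lower and 1 higher. Over its coding exons, 2.0 kb from the start, Daxx-KO had 17.4 and 13.6 against 35.5 and 103 in WT (-2.08 ± 0.77, and -1.14 without the second WT library). At the start itself it was 46.5 and 54.4 against 80.6 and 122 (1.99-fold lower), not called. At 24 w.p.i. the promoter site was not called, with 1289.6 and 960.2 against 964 and 942 (0.24 ± 0.21, and 0.82 scaled by mean reads). H3.3 in the gene was higher at both times, with 106 and 105 against 56.8 and 41.9 at 3 w.p.i., 2.2 kb from the start (1.08 ± 0.21, and 0.88 without the shallow WT library), and 272 and 113 against 9.22 and 46.1 at 24 w.p.i., 2.7 kb from the start (2.76 ± 1.27, 4.24 without the second WT library, 2.04 without the first, and 1.99 without the first Daxx-KO library). At 2.7 kb, Pu.1 was the other way at 24 w.p.i., 24.5 and 12.5 against 104 and 80.0 (-2.25 ± 0.49). A Pu.1 site 6.9 kb from the start in Phrf1 had 297 and 276 against 17.3 and 8.42 (4.38 ± 0.48).

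Irf1 (chr11:53770014-53778374, plus strand) and Irf2 (chr8:46739732-46847458, plus strand) had lower H3K27me3 over their starts in Daxx-KO at 24 w.p.i. At Irf1, H3K27me3 over the start was 55.0 and 46 in Daxx-KO against 131 and 177 in WT (-1.59 ± 0.25). At Irf2 it was 12.8 and 25.8 against 105 and 74.3 (-2.16 ± 0.54). These differences have the opposite sign to that at Irf8, in the same libraries. H3K27ac over the Irf1 start was 1922 and 1746 against 1429 and 1097 (0.54 ± 0.20), and over the Irf2 start 3573 and 3375 against 2061 and 2076 (0.75 ± 0.04). Neither reached 2-fold by the authors' constants, and both did scaled by mean reads, at 1.11 and 1.32. Of the other 4 H3K27ac sites within 1 kb of an Irf2 start, all at starts inside the gene, 3 were called lower, at 65.8, 67.0 and 74.7 kb (-1.96, -3.09 and -1.83, and -1.39, -2.57 and -1.29 scaled by mean reads).

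Irf2 also had higher Pu.1 in its first intron at both times. At 3 w.p.i. the site 1.7 kb from the start had 94.5 and 77.8 in Daxx-KO against 25.1 and 19.2 in WT (1.91 ± 0.23). At 24 w.p.i. the overlapping site at 1.2 kb (chr8:46740451-46741500) had 110.4 and 111 against 10.1 and 3.16 (3.87 ± 0.71, and 4.75 without the first WT library). Across the window, Pu.1 at 24 w.p.i. was called higher at 15 of 21 sites and lower at 6. At Irf1, Pu.1 at 24 w.p.i. was instead called higher at 5 of 19 and lower at 14. An H3K27ac site 26.3 kb beyond the Irf1 start, in Gm12216 (chr11:53795701-53797000), had 150.2 and 180.1 against 74.2 and 76.1 at 3 w.p.i. (1.13 ± 0.13, and 0.99 without the second Daxx-KO library). Irf1 and Irf2 had more H3K27ac sites higher than lower at 3 w.p.i., 10 and 3 at Irf1 and 14 and 6 at Irf2, whereas each of Irf5, Irf7 and Irf9 had more lower than higher. At 24 w.p.i. Irf2 had 14 higher and 29 lower, and 19 and 13 scaled by mean reads.

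Irf9 (chr14:55603571-55610030, plus strand) had H3.3 called higher at 14 of 15 sites at 3 w.p.i. and lower at none. In the gene, 4.5 kb from the start, it was 188 and 226 in Daxx-KO against 97.5 and 55.0 in WT (1.43 ± 0.43), and at 24 w.p.i., 3.8 kb from the start, 98.3 and 130.2 against 44.3 and 34.8 (1.51 ± 0.26). At the start Pu.1 was lower at 24 w.p.i., 21.8 and 52.2 against 216 and 82.1 (-1.98 ± 0.92, -1.13 without the first WT library, and -2.72 without the second Daxx-KO library). H3K27ac there was 110.2 and 77.6 against 201 and 179 (-1.01 ± 0.26), with -0.78 without the second Daxx-KO library, -0.92 without the first WT library and -0.43 scaled by mean reads. H3K27me3 at the start was lower in DKO than in Daxx-KO at 8 w.p.i., with 2.51, 2.01 and 0.00 against 11.5, 13 and 13.2 (-2.44 ± 0.57). The window holds 13 other protein-coding genes, and 15 of its 116 sites had an Irf9 start as the nearest.

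Letters of known binding motifs were counted in the Pu.1 and H3K27ac sites on both strands. The words were GAGGAA for the Pu.1 core, GGAANNGAA as a short core of the ETS-IRF composite element, GAAANNGAA as a short core of the interferon response element and TGANTCA for AP-1. N is any base, and the words can overlap. A match to a short core does not show that the full element is present. All sets are those called by the authors' constants. For Pu.1 at 3 w.p.i., where 1 WT library was shallow, the scaling by mean reads left 10 lower sites, and the words were not counted in these alone. Among the 29 Pu.1 sites called lower at 3 w.p.i. by the constants, 13 (44.8%) held GGAANNGAA, beside 19.2% of all sites of that table with the same lengths, and 10 (34.5%) held TGANTCA, beside 19.3%. These differences were not tested. GAGGAA was in 51.7% of the 29 lower sites, beside 52.8%, and GAAANNGAA in 20.7%, beside 17.2%. Among the 87 called higher, 18 (20.7%) held GGAANNGAA, beside 20.9%, 63.2% held GAGGAA, beside 55.9%, 10.3% held GAAANNGAA, beside 19%, and 16.1% held TGANTCA, beside 20.8%. At 24 w.p.i. the composite word was in 19 of 81 lower Pu.1 sites (23.5%, beside 23.8%) and in 34 of the 115 H3K27ac sites called lower by the authors' constants (29.6%, beside 25.6%). GAAANNGAA was in 27.2% of those Pu.1 sites, beside 23.9%, and in 15.7% of those H3K27ac sites, beside 24.4%. A match is a word in the sequence and not an occupied site, and no other set of member sites is read from these counts.

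The matched stretches of the sites that carry the results above are shown with 35 bases on each side, all on mm10. Capitals mark GGAANNGAA, or GAAANNGAA for Irf1. The Irf2 stretch (chr8:46741364-46741442, plus strand) lies in the intronic Pu.1 site that was higher at both times. The Irf4 stretches lie in the intronic Pu.1 site (chr13:30759505-30759583, minus strand) and the upstream H3K27ac site (chr13:30696008-30696086, plus strand) that were lower at 24 w.p.i. The Irf5 stretch (chr6:29529845-29529923, minus strand) lies in the promoter H3K27ac sites of both times. The Irf8 stretch (chr8:120746157-120746235, plus strand) lies in an intronic site where H3K27ac was lower at 24 w.p.i., 53.2 and 86.4 in Daxx-KO against 145 and 185 in WT (-1.23, -0.93 without the first Daxx-KO library, and -0.68 scaled by mean reads), and the Irf1 stretch (chr11:53796825-53796903, minus strand) in the downstream H3K27ac site.
Irf2 intron: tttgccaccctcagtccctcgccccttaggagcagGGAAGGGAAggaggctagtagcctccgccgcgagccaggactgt
Irf4 intron: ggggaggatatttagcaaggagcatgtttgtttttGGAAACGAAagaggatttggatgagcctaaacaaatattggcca
Irf4 upstream: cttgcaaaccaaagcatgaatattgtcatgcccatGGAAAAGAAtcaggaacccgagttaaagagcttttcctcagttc
Irf5 promoter region: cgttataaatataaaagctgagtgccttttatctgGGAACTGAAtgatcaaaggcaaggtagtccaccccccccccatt
Irf8 intron: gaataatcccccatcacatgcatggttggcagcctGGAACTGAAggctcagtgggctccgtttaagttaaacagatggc
Irf1 downstream: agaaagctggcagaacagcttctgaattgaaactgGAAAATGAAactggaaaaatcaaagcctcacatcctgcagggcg

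All 8 members were matched to the RefSeq promoter table by symbol, with 11 promoters. Irf2, Irf4 and Irf9 promoters held GAGGAA within the 250 bases before the start, as did 23.3% of 32851 promoters. The Irf2 promoter alone among them held the longer words GGAANNGAA (6.99% of all promoters) and GAAANNGAA (7.13%), which overlap in the following stretch (chr8:46739495-46739554, plus strand), and none of the 11 held TGANTCA (6.75%).
Irf2 promoter: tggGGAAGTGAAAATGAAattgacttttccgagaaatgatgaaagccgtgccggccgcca
The stretch lies in the 2900-base H3K27ac site of Irf2, and 247 bases before the start is the first base of its composite word.

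Sites of one mark that overlapped between 3 and 24 w.p.i. were compared for direction, with other mice at each time. For H3.3, 32 of 48 overlapping pairs called at both times had the same direction (66.7%), beside 51.2% of all such pairs in the tables, and 29 of the 32 were higher at both times. Another 13 of the 48 were higher and then lower, and 3 lower and then higher. Most of these sites were thus higher at each time. Such a lean by itself raises the share with the same direction, so the 66.7% is not read as a repeat. For Pu.1, 14 of 33 pairs had the same direction (42.4%, beside 47.9%), and 17 of the 33 were higher at 3 w.p.i. and lower at 24 w.p.i. For H3K27ac it was 19 of 35 (54.3%, beside 63.3%), with 14 lower at both times and 5 higher at both times. With an overlap of 50% required it was 15 of 20 (75%). Scaled by mean reads, the H3K27ac split turned to 16 higher and 8 lower at both times out of 37. The overlapping H3.3 sites in Irf7 and in Irf9 given above were among those higher at both times.

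Marks that overlapped at one time were compared in the same way. At 3 w.p.i., H3.3 and Pu.1 sites had the same direction in 35 of 43 called pairs (81.4%), close to the 81.6% of the whole tables, and the 2 antibodies were used on the same mice. At 24 w.p.i. H3K27ac and H3K27me3 were called in opposite directions in 20 of 34 pairs, 17 of them with lower H3K27ac and higher H3K27me3. Of the 19768 pairs called in the whole tables, 53.7% had the same direction, against 41.2% here, and 2706 had lower H3K27ac and higher H3K27me3. Of those 17 at the members, Irf8 held 13, Irf4 3 and Irf5 1. Scaled by mean reads, lower H3K27ac with higher H3K27me3 was left in 10 of 41 pairs, and 22 pairs were higher for both marks, so this opposition depended on the scaling.

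The other genes of the pathway had mostly lower H3K27me3 at 24 w.p.i. Windows of 48 genes were taken in the same way. At 24 w.p.i., H3K27me3 was called higher at 74 and lower at 295 of their sites (20.1% of called sites higher, beside 36.4% in the table), and at 123 and 199 scaled by mean reads (38.2%, beside 56.3%). The adaptors and kinases that activate Irf3 and Irf7 had 17 and 56, the partners of the factors (Spi1, Batf and others) had 24 and 73, and 19 of 20 interferon-stimulated genes, matched by symbol, had 30 and 100. Each of these 3 lists stayed below its table's share with the other scaling, at 38.8%, 45.5% and 43.7%. For H3.3 and Pu.1 at 3 w.p.i. the pathway genes leaned upward like the members. They had 467 higher and 167 lower (73.7%, beside 59% in the table) and 446 and 184 (70.8%, beside 55.3%). Scaled by mean reads these were 506 and 92 (84.6%, beside 69.6%) and 513 and 98 (84%, beside 68.9%). In DKO against WT at 8 w.p.i., their H3K27me3 was called higher at 111 and lower at 23 sites (82.8%, beside 54.8% in the table), also upward. With the other scaling it was 84 and 25 (77.1%, beside 47.8%). H3K9me3 of the pathway genes at 24 w.p.i. was called higher at 225 and lower at 108 sites (67.6%, beside 49.1% in the table). Scaled by mean reads this was 226 and 105 (68.3%, beside 49.9%). The lists of cell-type markers used below also lay above 49.9% with that scaling, from 55.8% (HSPC) to 78.1% (neutrophil and granulocyte-monocyte).

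Markers of cell types that c-Kit-positive, lineage-negative marrow can hold also had called sites. At 24 w.p.i., windows of 9 neutrophil and granulocyte-monocyte genes had 79 H3K27ac sites higher and 30 lower (72.5% higher, and 88.1% scaled by mean reads), and their H3K27me3 had 22 higher and 52 lower (28 and 36 scaled). Of all called sites, 39.0% for H3K27ac and 36.4% for H3K27me3 were higher, or 57.8% and 56.3% scaled. Monocyte and dendritic genes, the lineage that Irf8 directs, had 67 H3K27ac sites higher and 85 lower, which turned to 102 and 40 scaled, and 8 H3K27me3 sites higher and 51 lower (8 and 40 scaled). Scaled shares of H3K27ac above the table's 57.8% were also found for megakaryocyte (78.4%), B-lineage (70.5%), HSPC (69.6%), NK (64.7%) and erythroid genes (60.8%). T-lineage genes (55.4%) and mast-cell and basophil genes (43.3%) were below it. An upward lean of H3K27ac was thus not confined to the neutrophil and monocyte lists. B-lineage genes had 39 H3K27me3 sites higher and 54 lower (60 and 27 scaled), and T-lineage genes 40 and 28 (52 and 9 scaled). HSPC genes had 13 and 33 (22 and 23 scaled), erythroid genes 5 and 27 (14 and 18), megakaryocyte genes 2 and 23 (3 and 15), mast-cell and basophil genes 0 and 13 (0 and 12), and NK genes 7 and 6 (8 and 4). Summed levels of these markers cannot be had from tables of differences, and the part that a changed cell make-up plays in the results at Irf8 and Irf4 was not tested.

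The targeted gene was listed in few tables. Over Daxx exons 2 to 7 (chr17:33910431-33914062), 1 site was lower in Daxx-KO in each of H3K27ac at 3 w.p.i., Pu.1 at 24 w.p.i. and H3K27ac at 24 w.p.i., and none was higher in any table. Over Spi1, the gene deleted together with Daxx in DKO mice, no site was listed in the 8 w.p.i. tables, so the deletion of Pu.1 could not be checked in them. In Daxx-KO, Spi1 had 5 H3K27me3 sites lower and none higher at 24 w.p.i., and 5 H3K27ac sites higher and 1 lower at 3 w.p.i.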

How the data were processed

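CUT&Tag libraries of HSPCs were analysed from 14 tables that the authors made with diffReps on mm10 and that hold 54 of the 62 labelled libraries. The labels list CASAVA 1.8.4, cutadapt 1.13, STAR 2.5.3 and bedtools. The other 8 libraries (DKO, 24 w.p.i.) were not analysed here, nor was the H3K27me3 table of Daxx-KO and WT at 8 w.p.i., whose control columns name H3K9me3 libraries. The deposited signal of a site is a normalised count per library, the reads divided by a constant in the file header. Values under 20 were within 0.05 of whole reads (100% of them) after multiplication by a refined constant. It was chosen, within the rounding of the header's constant, to bring low values closest to whole reads, so this is not an independent check. The authors' columns of event, fold change, p-value and adjusted p were not used. Their tables leave out sites that did not pass their window test.

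Sites were assigned to genes with the GENCODE M21 annotation, and the log2 ratio is that of group means with 1 added, with the SE from the libraries' log2 values. Nearest starts, overlaps (at least 1 base), promoters (within 1 kb of a start of the member) and motifs were computed with Python 3.11.15, NumPy 2.4.6, pandas 2.3.3 and SciPy 1.17.1, and figures with matplotlib 3.10.9. Shares have exact (Clopper-Pearson) 95% intervals. The calling rule was tried on simulated data for some of the comparisons, with changes well above 2-fold at sites with a mean of at least 20. This does not show how it performs near 2-fold or at low counts. The members, lists and named sites were chosen with earlier results of these data known. Named sites were those within 1 kb of a member's start and, per member, comparison and direction, the called site with the highest mean. Those given in full were preferred where they were listed at several times or for several marks. The counts of 1 list of pathway genes are not reported here.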

Additional observations from a re-analysis of the deposited data

Results flagged for a closer look

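Of the overlapping member sites of one antibody at 3 and 24 w.p.i., 51 pairs were called in opposite directions at the 2 times (16 for H3.3, 19 for Pu.1 and 16 for H3K27ac). In 3 of them both sites were among those chosen by the rule for named sites, and only these are given here. The difference between the times was not tested, the mice and the tables' normalisation differ between the times, and the differences below are of mean normalised read counts, Daxx-KO minus WT. For Pu.1 at 1.1 kb from the Irf4 start, the difference was 35.6 at 3 w.p.i. (58.2 against 22.7) and -43.6 at 24 w.p.i. (30.7 against 74.3). For Pu.1 near the Irf8 start, it was 31.2 at 3 w.p.i. (1.3 kb, 44.8 against 13.6) and -42.1 at 24 w.p.i. (0.9 kb, 0.0 against 42.1). The WT mean of the former rests on 27.2 in the first library and 0.00 in the shallow second one. For H3K27ac in Irf8, it was 29.9 at 3 w.p.i. (9.0 kb, 55.0 against 25.1) and -95.4 at 24 w.p.i. (10.1 kb, 69.8 against 165.0), where the log2 ratio at 24 w.p.i. was -1.23 and, scaled by mean reads, -0.68, no longer called. Groups of 2 or 3 libraries are too small to single out an outlying library by rule.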

How the results depend on the processing

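The side of 50% on which a share of higher sites lay was turned by another setting for 3 antibodies. For H3K27ac it became 67.8% at 24 w.p.i. (122 higher, 58 lower) when libraries were scaled by mean reads per window in place of the authors' constants, and at 3 w.p.i. 50.5% with that scaling and 60.8% (31 higher, 20 lower) with a mean of at least 20 required. For Pu.1 at 24 w.p.i. it became 54.5% within 10 kb of a member and 52.9% for sites nearest to it, and for H3K27me3 at 24 w.p.i. 49.2% with neighbouring sites merged. The same scaling gave 93.4% with 8 lower for H3.3 and 90.7% with 10 lower for Pu.1 at 3 w.p.i., 15 higher for H3K27me3 in DKO against WT, and 76.8% with 19 lower for H3K27me3 at 24 w.p.i. For single sites this scaling was added after the data were seen. It gave log2 ratios of 1.34 (3.5 kb) and 1.54 (17.3 kb) for Irf8 H3K27me3 at 24 w.p.i., 1.77 for Irf8 H3K27ac at 29.1 kb, -2.07 for Irf4 H3K27ac at -51.9 kb, -0.81 and 0.84 for Irf5 H3K27ac and H3K27me3, 1.59 for Irf7 H3.3 at 3 w.p.i., 1.11 and 1.38 for Irf1 H3K27ac, 1.32 and 2.31 for Irf2 H3K27ac and Pu.1, 1.56 and 1.64 for Irf3 H3K27ac and -0.43 for Irf9 H3K27ac.

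Windows of 10 kb hold fewer sites by construction. They gave, higher and lower, 35 and 7 (H3.3), 28 and 7 (Pu.1) and 19 and 29 (H3K27ac) at 3 w.p.i., 30 and 19 (H3.3), 24 and 20 (Pu.1), 28 and 50 (H3K27ac), 16 and 5 (H3K9me3) and 14 and 11 (H3K27me3) at 24 w.p.i., 14 higher against WT and 14 and 2 against Daxx-KO for H3K27me3 in DKO, and 0 lower for H3K9me3 at 8 w.p.i. Sites whose nearest start was that of the member, also fewer, gave 45 and 11, 25 and 17 (59.5%) and 29 and 31 at 3 w.p.i., 40 and 29, 37 and 33, 34 and 68 (33.3%), 25 and 8 and 11 lower (75.6%) at 24 w.p.i. in the same order, 16 higher against WT and 2 lower against Daxx-KO, and 0 lower for H3K9me3. A mean of at least 20 left 0 lower against WT (100%), 3 lower against Daxx-KO and 0 for H3K9me3 at 8 w.p.i. Without the fold minimum, 124 H3K27ac and 77 H3K27me3 sites were higher at 24 w.p.i. Requiring 50% overlap left 30 H3.3 and 49 H3K27ac pairs between the times (for H3K27ac, 15 of 20 called pairs, or 75%, then had the same direction), and 16 (Pu.1 with H3K27ac, 3 w.p.i.), 30 (H3.3 with Pu.1), 57 (H3.3 with H3K27ac) and 11 (H3.3 with H3K9me3) pairs between marks, whereas a distance of 1 kb gave 95, 86 and 143 pairs for H3.3, Pu.1 and H3K27ac. With 5 added in place of 1, Irf8 H3K27ac at 2.4 kb was -1.77, Irf3 H3K27ac at 0.6 kb 1.10 and Irf9 H3K27me3 in DKO -1.43.

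With 1 library left out at a time, Pu.1 at 3 w.p.i. had 54 to 90 sites higher, H3K27me3 in DKO against Daxx-KO 6 to 10 lower, and Irf5 H3K27ac at 1.6 kb a log2 ratio of -4.98 to -1.44. Where no construction of an alternative explains a change, the cause was not tested. Of the settings tried, 338 of the values at single sites stayed within 1 SD of the libraries and 18 did not. Leaving out 1 library at a time made up 211 of the 338. The scaling by mean reads made up 14 of the 18 and left 34 values within 1 SD, so it moved a larger part of them. That SD comes from 2 or 3 libraries per group and is wide. No paired analysis was possible because no result comes from a test and libraries with the same number came from different mice. Depth of 0.20 to 3.29 reads per window at 8 w.p.i., and at 3 w.p.i. of 1.33 to 2.26 for H3K27ac and 1.21 to 3 for H3K9me3, limits the precision of those counts.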
